A study of Mus musculus with 3 samples.

Results

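The carbonic anhydrases described here are 10 genes, *Car1*, *Car2*, *Car3*, *Car4*, *Car7*, *Car8*, *Car9*, *Car12*, *Car13* and *Car14*, taken by symbol from the 24346 genes of a bulk RNA-seq table of adult lung endothelial cells (ECs). All 10 have a row. The ECs came from lungs of wild type C57BL/6J mice, males aged 6 to 8 weeks. To isolate the ECs, a fluorescently labelled VE-cadherin antibody was given into the circulation before harvest. They were sorted as CD31+ cells without CD45 and Podoplanin, straight from dissociated tissue and without culture. The paper names VE-cadherin among the sort markers of kidney ECs. Whether it was also a gate for the lung is not stated. There are 3 libraries, S38, S44 and S52, all of this single condition, so no contrast between conditions exists and the values are a description. The labels do not say whether each library is 1 mouse or a pool, so the spread between libraries may be partly technical. All 10 endothelial marker genes examined were expressed, from *Erg* at 62.4 FPKM to *Cldn5* at 1416 FPKM (means of 3 libraries, where FPKM is the number of fragments of a gene scaled by its length and by the depth of the library). S52 stood apart from the other libraries in many genes of blood and epithelial cells. The summed level of 5 such lists (erythroid, platelet, alveolar type 2, airway and leukocyte) was lowest there. For the erythroid list this rests mostly on the globin genes *Hbb-bs* and *Hba-a2*. The alveolar type 1 sum was lowest in S52 too, but 3 of its 5 genes, *Ager*, *Rtkn2* and *Akap5*, were highest there.

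Carbonic anhydrases speed the exchange between carbon dioxide with water and bicarbonate with a proton. In the lung, bicarbonate carried by the blood must be turned back into carbon dioxide within the short passage through a capillary, and part of this work is done by enzyme on the luminal face of the endothelium. The members differ in where the enzyme sits. Car1, Car2, Car3, Car7 and Car13 are cytosolic, Car4 is held on the outside of the cell by a glycosylphosphatidylinositol (GPI) anchor, and Car9, Car12 and Car14 span the membrane with the enzyme domain outside. Car8 is a cytosolic relative without carbonic anhydrase activity. Activity depends on a zinc ion held by 3 histidines.

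The coding bases around the first and second zinc-binding places are shown for 9 members, the active enzymes, because this stretch holds part of the site that activity depends on. Each run holds 30 bases of the coding strand, 5′ to 3′, from the GENCODE M21 transcript used here for the gene, and the capitals mark the codons aligned with the histidines at positions 94 and 96 of Car2, counted from 1 at its first methionine.
Car4: cagttgCACctgCACtggtcaaatgggaat
Car14: cagctcCACctgCACtggggtcagagagga
Car2: cagtttCACtttCACtggggctcatctgat
Car7: cagctcCACttcCACtggggcaagaagcgc
Car13: cagttcCATttgCACtgggggtcagcagat
Car3: caattcCATcttCACtggggctcctctgat
Car12: cagctgCACttgCACtgggggaaccgcaat
Car9: cagttgCATctaCACtggggaacttcagat
Car1: cagttcCATtttCACtggggcaactcaaac

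All 9 genes shown have a histidine codon at the first place, CAC in 5 and CAT in 4, and all have CAC at the second. At the third place, further along the coding sequence, *Car7* and *Car13* have CAT and the others CAC. On the GRCm38 (mm10) genome the stretch of *Car4* lies in exon 4 of 8, at chr11:84964161-84964190 on the plus strand. That of *Car14* lies in exon 4 of 11, at chr3:95900294-95900323 on the minus strand, and that of *Car2* in exon 3 of 7, at chr3:14895063-14895092 on the plus strand. Translated and aligned, the coding sequence of *Car2* was closest to that of *Car1*, with 58.3% of aligned residues identical. It shared 33.3% with *Car4*, the lowest of the 9. The closest pair among all members was *Car1* and *Car13*, at 64.0%. *Car13*, *Car1*, *Car3* and *Car2* lie in that order within 259 kb of chromosome 3, from 14641727 to 14900770. No stretch of 51 bases, the length of a read, was shared between the transcripts used here for the members. No read within these transcripts can therefore match a pair of members exactly. *Car1* shared 162 of its 1144 such stretches with its pseudogene *Gm5843*, and *Car8* shared 2 of 3803 with other genes.

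The family in adult lung ECs was dominated by *Car4*, with *Car14* and *Car2* about an order of magnitude lower. *Car8* and *Car7* were low, and *Car13*, *Car3*, *Car12*, *Car9* and *Car1* had means under 1 FPKM. A mean of at least 1 FPKM was used as the threshold for a detected gene, and 5 of the 10 members reached it, a share close to the 48.3% of all 24346 genes that did. *Car1* was the only member listed at 0 in all 3 libraries, as were 29.5% of all genes. In 0 of the 5 detected members was the highest library over 2-fold above the lowest. Of the 11770 detected genes, 20.1% differed by over 2-fold. Summed over the 10 members, S38 held 977 FPKM, S44 1093 and S52 746. The share of *Car4* in this sum was 87.5% (S38), 87.8% (S44) and 78.0% (S52), or 84.4% ± 5.57 (SD, n = 3). *Car14* contributed 8.57% ± 3.53 and *Car2* 6.07% ± 1.96 (SD, n = 3 for each).

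**Figure D1:**
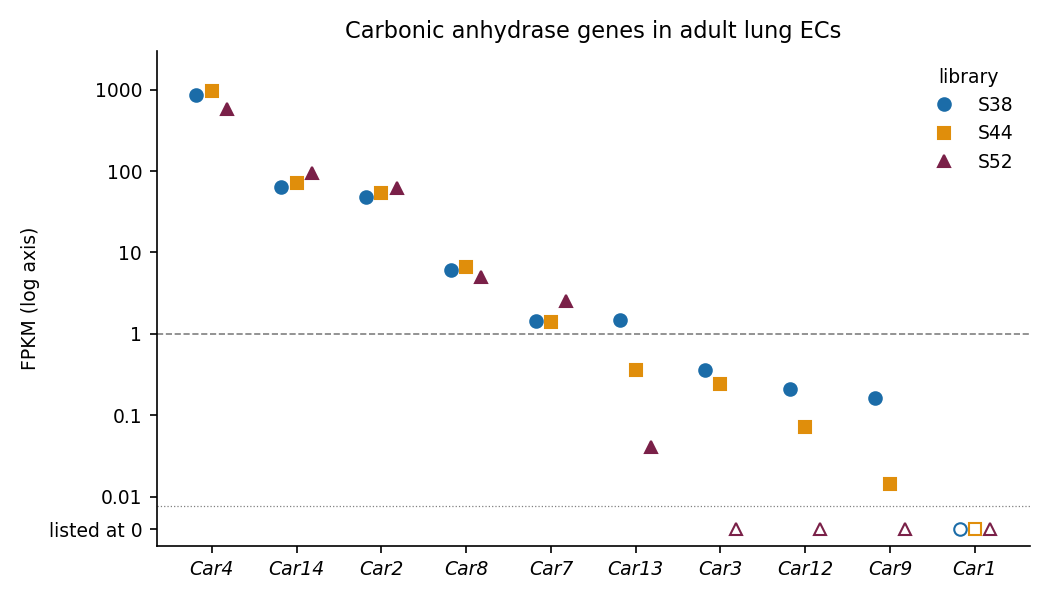
FPKM (log axis) of the 10 carbonic anhydrase genes in the libraries S38, S44 and S52, in order of the mean, with 1 point for each library. Open symbols under the dotted line are values listed at 0, and the dashed line marks 1 FPKM. *Car4*, at 582 to 959 FPKM, stands above all points of *Car14* and *Car2*.

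*Car4* encodes the GPI-anchored enzyme of the luminal surface and is used as a marker of aerocytes, the large alveolar capillary cells. S38 gave 855 FPKM, S44 959 and S52 582, a mean of 799 ± 195 FPKM (SD, n = 3). Its lowest library was S52, and the other libraries lay close together. Its 8 exons span bases 84957788 to 84966044 of chromosome 11 (plus strand). By its mean, *Car4* ranked 123 of 24346, higher than 99.5% of genes. Among endothelial genes it fell between *Cdh5*, the VE-cadherin gene, at 921 ± 51.5 FPKM, and *Esam*, an adhesion molecule gene of endothelial junctions, at 594 ± 42.6 FPKM (SD, n = 3 for each). By an estimate of depth from the low values of the table, *Car4* rested on about 35961, 40395 and 21290 fragments in S38, S44 and S52, so counting error is small beside the spread between libraries. In each library *Car4* was far above *Car14*, by 13.3-fold in S38, 13.6-fold in S44 and 6.17-fold in S52. The lowest value of *Car4*, 582 FPKM, and the highest of *Car14*, 94.4 FPKM, do not overlap.

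**Figure D2:**
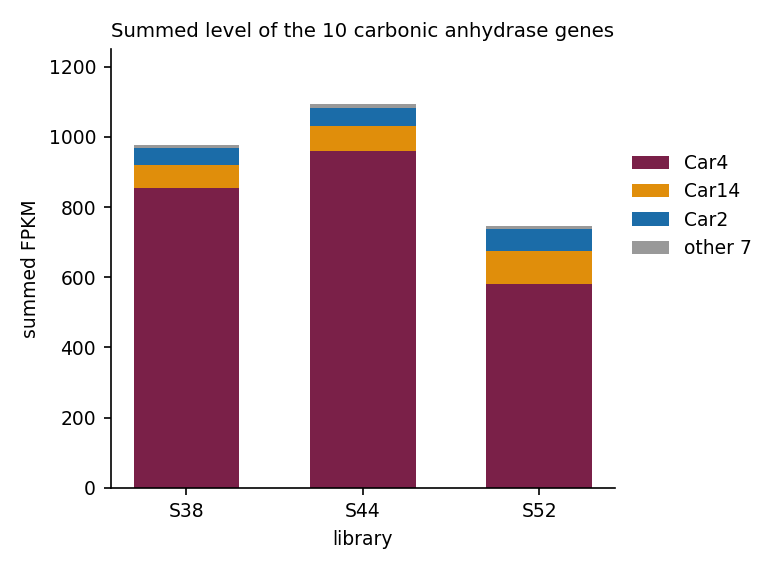
Summed FPKM of the 10 carbonic anhydrase genes in each library, stacked by gene, with the 7 genes other than *Car4*, *Car14* and *Car2* together in grey. The sum is lowest in S52, at 746 FPKM, where *Car4* is lowest while *Car14* and *Car2* are highest.

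*Car14* encodes a transmembrane enzyme with its active site outside the cell. S52 was its highest library, with 94.4 FPKM against 64.3 (S38) and 70.8 (S44), a mean of 76.5 ± 15.8 FPKM (SD, n = 3). Its mean ranks 1139, above 95.3% of genes. The gene lies on the minus strand of chromosome 3, from 95897768 to 95904691, and its end overlaps that of *Aph1a*, a gamma-secretase subunit gene on the plus strand. The shared exonic stretch has 445 bases, or 26.0% of the *Car14* transcript. The libraries carry no strand information, so fragments from this stretch cannot be assigned to either gene. *Aph1a* itself had 75.5 FPKM (S38), 86.0 (S44) and 90.1 (S52), and the level of *Car14* was 0.851, 0.823 and 1.05 times that of *Aph1a* in the same order. How much of the *Car14* value comes from the shared stretch was not tested.

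*Car2* encodes the highly active cytosolic enzyme known from red cells, osteoclasts and kidney. S38 held 48.3 FPKM of it, S44 53.9 and S52 62.2, a mean of 54.8 ± 6.97 FPKM (SD, n = 3). The libraries differed by 1.29-fold at most, the least of the 5 detected members, and 35.3% of all detected genes differed by less. *Car14* was above *Car2* in each library, by 1.33-fold, 1.31-fold and 1.52-fold. The lowest value of *Car14*, 64.3 FPKM, was above the highest of *Car2*, 62.2 FPKM, by little. After each library was divided by its median ratio to the others the ranges overlapped, with *Car14* at 61.9 in S38 and *Car2* at 64.4 in S52. Both genes were measured in the same libraries, and a two-sided exact permutation test over 3 pairs cannot go below p = 0.25, so the order of neighbours was not tested. *Car2* is abundant in red cells, and genes of red cells were present. The globin genes differed in S52. The beta globin gene *Hbb-bs* had 185 FPKM (S38), 308 (S44) and 0.0032 (S52), and the alpha globin gene *Hba-a2* 56.5, 321 and 0.0165 FPKM. The alpha globin gene *Hba-a1* stayed at 147, 147 and 91.0 FPKM. The summed level of 8 erythroid genes with a row was 412, 810 and 112 FPKM. Of these, 5 had a mean of at least 1 FPKM, and *Slc4a1*, the anion exchanger gene of red cells, had a mean of 0.0253 FPKM. The low erythroid sum in S52 rests mostly on *Hbb-bs* and *Hba-a2*, whereas *Bpgm*, in the same list, had 18.6, 20.8 and 17.2 FPKM. Whether the values of *Hbb-bs* and *Hba-a2* near 0 in S52 are failed estimates was not tested. The part of red cells in the level of *Car2* was not tested.

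*Car8* encodes the relative without enzyme activity, known for binding the inositol trisphosphate receptor in the cerebellum. The values were 6.00 FPKM (S38), 6.68 (S44) and 5.005 (S52), a mean of 5.90 ± 0.845 FPKM (SD, n = 3), on an estimated 621 to 931 fragments. The gap below *Car2* was wide, 9.30-fold by the means, and the ranges do not overlap. *Car7*, a cytosolic enzyme known from neurons, had 1.44 FPKM (S38), 1.38 (S44) and 2.54 (S52), a mean of 1.79 ± 0.654 FPKM (SD, n = 3). *Car7* was above 1 FPKM in every library, on an estimated 75.3, 72.7 and 117 fragments if each value is a single estimate. Its values carry more digits than that, as a sum of several estimates would, so these fragment numbers are less certain. The highest library of *Car7* was S52, at 1.84 times the lowest. *Car8* was above *Car7* in each library, by 4.18-fold, 4.84-fold and 1.97-fold, with ranges that do not overlap.

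Below *Car7* the ranges of neighbours overlap and the order holds only for the means. *Car13*, a cytosolic enzyme, had 1.49 FPKM (S38), 0.359 (S44) and 0.0412 (S52). The values of S44 and S52 rest on an estimated 29.1 and 2.95 fragments, and without S38 its mean was 0.200 FPKM in place of 0.629. Its value in S38 was above that of *Car7*, and in the other libraries it was below. *Car3*, an enzyme of skeletal muscle, fat and liver with low activity, was at 0.364 FPKM in S38 and 0.243 FPKM in S44 and was listed at 0 in S52. The value in S44 is an estimated 14.1 fragments. *Car12*, a transmembrane enzyme of epithelia, was at 0.209 FPKM in S38 and 0.0725 FPKM in S44 and was listed at 0 in S52. *Car9*, a transmembrane enzyme known as a target of hypoxia-inducible factor, was at 0.161 FPKM in S38 and 0.0142 FPKM in S44 and was listed at 0 in S52, the value in S44 being an estimated 1.01 fragments. Of its transcript, 145 bases (7.17%) are shared with *Gm12454* on the opposite strand. A count of 0 in S52 allows up to 0.0590 FPKM for *Car3*, 0.0251 for *Car12* and 0.0480 for *Car9* (3 fragments, counting error only). *Car1* was listed at 0 throughout, which allows up to 0.0754 FPKM in S38, 0.0754 in S44 and 0.0869 in S52. A listed 0 can also be a failed estimate.

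The 4 members under 1 FPKM that had any value, *Car13*, *Car3*, *Car12* and *Car9*, were all highest in S38 and lowest in S52. Of the 5393 genes with a mean above 0 and under 1 FPKM, 26% had this order. S52 also listed more genes at 0 than the other libraries, 9923 against 8324 (S38) and 8119 (S44). The sums of the alveolar type 2, airway, platelet and leukocyte lists were in the same order. Of their genes, 4 of 5 alveolar type 2, 5 of 5 airway, 6 of 6 platelet and 3 of 8 leukocyte genes had it. The order was not particular to these lists. It was also that of 4 of 6 aerocyte genes other than *Car4*, 3 of 6 fibroblast genes and the fibroblast sum. So it was for 7 of 15 bicarbonate transporter genes and 5 of 10 genes of proton and lactate exchange. By contrast, 1 of 10 endothelial, 0 of 6 general capillary and 0 of 6 mural genes had it. For 5 alveolar type 2 genes the sum was 3756 FPKM (S38), 3156 (S44) and 760 (S52). For 5 airway genes it was 2777, 2309 and 403 FPKM, for 6 platelet genes 1755, 1385 and 42.2 FPKM, and for 8 leukocyte genes 1113, 866 and 190 FPKM. The leukocyte sum rests mostly on *Lyz2* (1047, 780 and 166). All genes of the alveolar type 2, airway and platelet lists had means of at least 1 FPKM, as did 7 of the 8 leukocyte genes, all but *Cd3e*. The share of 26% covers only genes under 1 FPKM, so it is no background for these lists. For detected genes the share with this order was not counted, but 46.3% of them were lowest in S52. Of the 6 adipocyte genes, in a cell type where *Car3* is abundant, 0 had a mean of at least 1 FPKM, with *Cidec* the highest at 0.958, and *Retn* was listed at 0 in all libraries. The adipocyte sum was 3.17, 1.39 and 0.793 FPKM. In S52 it was all from *Adipoq*, which was highest there, at 0.147, 0 and 0.793 FPKM. Of the 6 genes, 2 were highest in S38 and lowest in S52. Of 8 striated muscle genes 4 had means of at least 1 FPKM, with sums of 35.1, 21.4 and 35.7 FPKM that rest mostly on *Actc1* (18.6, 13.4 and 30.6). Of the 8, 5 were highest in S38 and lowest in S52, among them *Mb*, the myoglobin gene, at 6.15, 1.97 and 0.544 FPKM. *Actc1* and *Acta1*, a skeletal muscle actin gene, were highest in S52, with *Acta1* at 1.05, 0.970 and 3.64 FPKM. Of 5 mesothelial genes 2 had means of at least 1 FPKM, with sums of 14.2, 14.3 and 10.1 FPKM. The part of these cells in the low members was not tested.

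Of the 5 detected members, *Car4* and *Car8* were lowest in S52 and *Car14*, *Car2* and *Car7* were highest there. Among all detected genes 46.3% were lowest and 33.9% highest in S52. Both aerocyte and general capillary cells are ECs of the alveolar wall, and genes of each were set beside *Car4*. *Car4* in S52 was 0.680 times its level in S38 and 0.606 times that in S44. All 6 other aerocyte genes were lowest in S52 as well, with median ratios of 0.548 to S38 and 0.560 to S44. *Fibin* had 179 FPKM (S38), 153 (S44) and 65.6 (S52), and *Ednrb*, the endothelin B receptor gene, 143, 155 and 75.3 FPKM. *Emp2* differed least, at 546, 533 and 487 FPKM, and with the libraries rescaled to the same sum it was above S44 in S52. In bulk samples fewer cells of a type and less RNA of a gene per cell cannot be told apart. Of the 6 general capillary genes, 3 were highest in S52 and only *Kit* was lowest, with median ratios of 1.16 to S38 and 1.01 to S44. After rescaling to the same sum, the median ratio to S38 was 0.945. *Gpihbp1*, the general capillary gene for the transporter of lipoprotein lipase, was at 661, 663 and 886 FPKM. *Car14* in S52 was 1.47 times its level in S38 and 1.33 times that in S44, and *Car2* 1.29 and 1.15 times. The median over detected genes was 0.936 for S52 to S38 and 0.951 for S52 to S44. The directions of *Car4*, *Car8*, *Car14*, *Car2* and *Car7* in S52 were kept under both rescalings of the libraries. The blood and epithelial genes given above also differed between S52 and the other libraries, and their part in these differences was not tested. Alveolar type 1 genes gave sums of 349, 374 and 275 FPKM, carried by *Hopx* (294, 332 and 201), but 3 of the 5, *Ager*, *Rtkn2* and *Akap5*, were highest in S52, and the median ratios were 1.53 to S38 and 1.97 to S44. Mural genes summed to 137, 76.4 and 151 FPKM and fibroblast genes to 95.7, 78.8 and 61.4 FPKM.

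**Figure D3:**
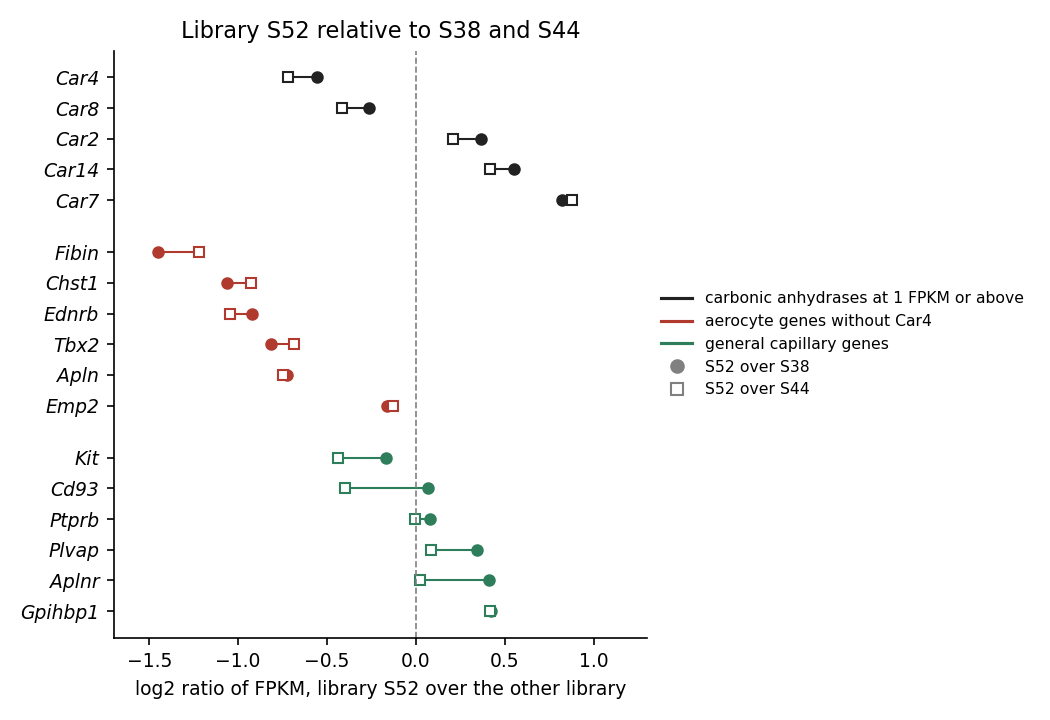
Log2 ratio of FPKM in library S52 to S38 (filled circles) and to S44 (open squares), for the 5 carbonic anhydrases with a mean of at least 1 FPKM, 6 aerocyte genes without *Car4* and 6 general capillary genes. Negative values are lower in S52. *Car4*, *Car8* and the 6 aerocyte genes lie left of 0, and *Car2*, *Car14* and *Car7* lie right of it.

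The genes most like each detected member were found by the largest difference in log2(FPKM + 1) over the 3 libraries, which compares level as well as spread. Closest to *Car4* were *Calcrl*, which encodes a receptor of adrenomedullin, at 879, 934 and 578 FPKM and within 0.040, and *Cd9*, a tetraspanin gene, within 0.16. For *Car14* they were *Ddrgk1* within 0.056 and *Epha2*, an ephrin receptor gene, within 0.087. For *Car2* they were *Emc10* within 0.052 and *Eef1d*, a translation elongation factor gene, within 0.055. *Nxpe3* and *Kazald1* were closest to *Car8*, within 0.030 and 0.037, and *A430046D13Rik* and *Lama2*, a laminin chain gene, to *Car7*, within 0.078 and 0.082.

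Carbonic anhydrase genes outside the 10 were low. Of the 6, *Car5b*, for a mitochondrial enzyme, had 1.41 FPKM (S38), 1.41 (S44) and 1.95 (S52), and *Car15*, for a GPI-anchored enzyme, had 1.80, 2.12 and 0.0621 FPKM. These were the only ones with a mean of at least 1 FPKM, and without S44 only *Car5b* was. *Car11*, an inactive relative, had a mean of 0.406 FPKM and *Car5a*, also mitochondrial, of 0.158 FPKM. *Car6*, for the secreted enzyme of saliva, and *Car10* were listed at 0 in all libraries. The list median was 0.282 FPKM, against 0.784 FPKM over all genes, of which 48.3% had a mean of at least 1 FPKM.

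Bicarbonate formed or used by these enzymes crosses membranes through exchangers and cotransporters, of which 3 of 15 had a mean of at least 1 FPKM. Over all genes the share was 48.3%. The highest was *Slc4a2*, a chloride-bicarbonate exchanger gene, with 19.0 FPKM (S38), 17.8 (S44) and 18.0 (S52), a mean of 18.3 ± 0.631 FPKM (SD, n = 3). *Slc26a11* had a mean of 7.38 ± 1.20 FPKM and *Slc4a7*, a sodium-bicarbonate cotransporter gene, of 3.49 ± 0.970 FPKM (SD, n = 3 for each). *Slc4a9* and *Slc26a7* were listed at 0 throughout, and the list median was 0.318 FPKM. Without S52, 5 of the 15 reached the threshold. Among 10 genes of proton and lactate exchange 5 did, led by *Bsg*, the chaperone of lactate transporters, at 187, 189 and 194 FPKM. *Slc16a1* and *Slc16a3*, the genes of the lactate transporters that pair with *Bsg*, were at 2.47 ± 0.763 and 1.82 ± 0.809 FPKM (SD, n = 3 for each). *Slc9a2* was listed at 0, and the list median was 0.925 FPKM.

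Of 9 genes that sense protons or bicarbonate, *Gpr4* and *Gpr132* had a mean of at least 1 FPKM, against 48.3% of all genes. *Gpr4*, the proton-sensing receptor known from endothelium, had 10.4 FPKM (S38), 10.6 (S44) and 15.4 (S52). *Gpr132* was at 3.99, 1.18 and 0.309 FPKM, and without S38 its mean was under the threshold. *Asic3* and *Adcy10*, the gene of the bicarbonate-sensitive adenylyl cyclase, were listed at 0 in all libraries, and the list median was 0.138 FPKM. Of 6 channels through which carbon dioxide can pass, *Aqp1* was the highest, at 2019, 2301 and 1734 FPKM, above *Car4* in each library. *Aqp5*, also in the alveolar type 1 list, was at 10.5, 7.61 and 3.08 FPKM, the 4 Rhesus genes had means under 1 FPKM, and the list median was 0.045 FPKM.

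The low level of *Car9* stood beside other targets of hypoxia-inducible factor that were not low. Of 12 such genes 11 had a mean of at least 1 FPKM, against 48.3% of all genes, and the list median was 21.7 FPKM. The highest was *Aldoa*, of glycolysis, at 328 ± 5.95 FPKM, and *Vegfa* was at 134 ± 4.14 FPKM (SD, n = 3 for each). *Egln3*, a prolyl hydroxylase gene, was the exception at 1.25, 0.173 and 0.548 FPKM. Many of these genes are also expressed without hypoxia. The enzyme complex that attaches GPI anchors, which Car4 needs, had all 5 of its genes detected, from *Pigk* at 9.40 ± 1.03 FPKM to *Pigu* at 28.1 ± 1.38 FPKM (SD, n = 3 for each), with a list median of 15.7 FPKM. The median over all detected genes was 11.2 FPKM.

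**Figure D4:**
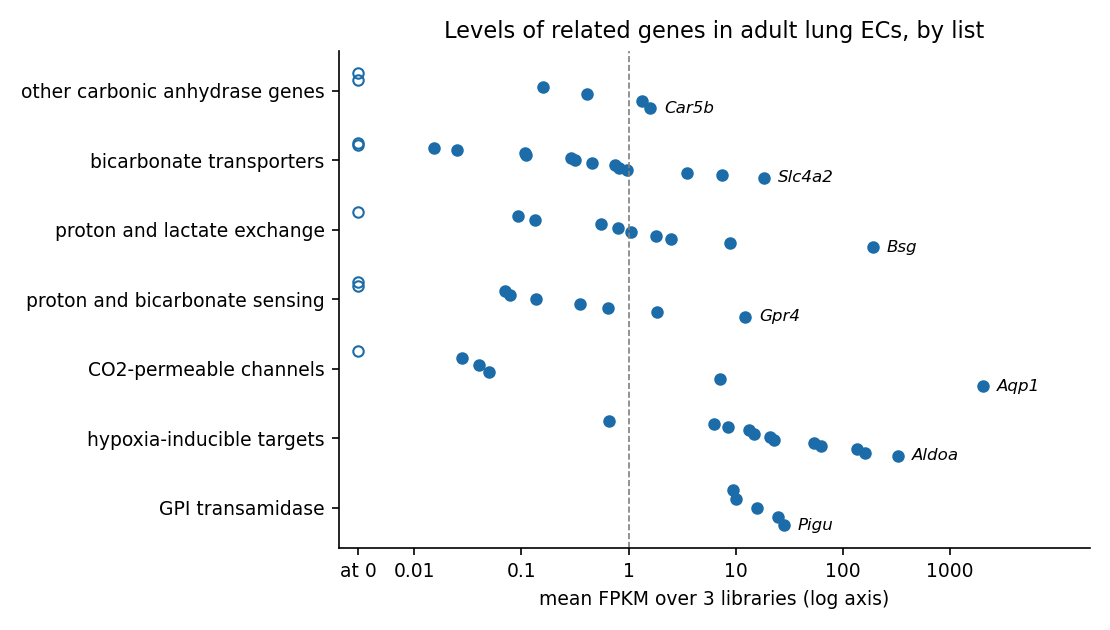
Mean FPKM over the 3 libraries (log axis) of the genes of 7 lists related to carbonic anhydrases, with 1 point for each gene and the highest gene of each list named. Open circles are genes listed at 0 and the dashed line marks 1 FPKM. *Aqp1* is the highest gene, at 2018 FPKM.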

How the data were processed

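Poly-A selected RNA of sorted adult lung ECs was sequenced as non-stranded paired reads of 51 bp. The table deposited by the authors holds 1 FPKM value per symbol and library, on mm10. The submitters' processing notes name Trimmomatic 0.36, TopHat2 2.1.0 and Cufflinks 2.2.1, whereas the methods of the study describe STAR and HTSeq for counts, and the gene annotation is not given in the sources used here. The deposited FPKM columns sum to 1153890 in S38, 1603596 in S44 and 1419351 in S52. For *Car7* and *Car12* the values carry more digits than a single estimate, as a sum of several estimates would. FPKM are not counts, so no count model was fitted.

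Values were used as deposited, without a pseudocount or filter for levels. Means and SDs are over 3 libraries, and a gene at a mean of at least 1 FPKM was called detected. Library depth was estimated from the steps of low values in 7077 genes with a single transcript of 800 to 4000 bp, giving 36700000 (S38), 37400000 (S44) and 33700000 (S52) fragments. This method was chosen with the values in view. On data simulated with the same length model as the fit, the error was at most 0.655%. This does not measure the error on the deposited values, where 78.5% (S52) to 82.7% (S44) of low values fell near whole fragments. Fragment numbers and the limits for a value of 0 use these depths and the GENCODE M21 transcript length. For *Car7* and *Car12* they take no account of a value that is a sum of several estimates. Sequences came from GENCODE M21 (GRCm38) and were aligned with Biopython 1.88. The members and gene lists were chosen with earlier results of these data known. Genes named are the members, genes of the lists, and the 2 genes closest to each detected member. *Aph1a*, *Gm5843* and *Gm12454* were named because of their overlap with a member, after the values were seen. *Hbb-bt* and *Epb42*, in the erythroid list, have no row. Alternatives were 2 rescalings of the libraries, other thresholds and pseudocounts, and leaving out each library. Some genes of the lists and 1 sequence are not reported here.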

Additional observations from a re-analysis of the deposited data

How the results depend on the processing

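The number of detected members was 5 of 10 under both rescalings, with 1 FPKM required in every library and without any single library. It was 7 with a threshold of 0.1 FPKM, 4 with 3 FPKM and 3 with 10 FPKM. The share of the summed level taken by *Car4* was 82.7% to 87.6% with a library left out. Rescaling each library to the same sum, of which genes of microRNAs and small nucleolar RNAs make up 59.6% to 70.2%, moved the mean of *Car4* to 583, of *Car14* to 55.5 and of *Car2* to 39.8, and 1 detected member in place of 0 then differed over 2-fold between libraries. With no filter and a pseudocount of 0.1 FPKM, 4 members did. The number of neighbouring pairs without overlap, 4 of 9, was 3 after division by the median ratio and 4 to 6 with a library left out. The rescalings moved S52 against S38 and S44 by -0.30 and 0.18 (same sum) and by 0.11 and 0.07 (median ratio) on the log2 scale for every gene.

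The counts of other genes depend on the threshold, in alternatives added after the data were seen. For the 6 other carbonic anhydrases the count of 2 was 1 after rescaling to the same sum, 4 at 0.1 FPKM and 0 at 3 or 10 FPKM, and 1 to 2 with a library left out. For bicarbonate transporters the count of 3 was 11 at 0.1 FPKM, 1 at 10 FPKM and 3 to 5 with a library left out. For proton and lactate exchange the count of 5 was 8, 2 and 1 at 0.1, 3 and 10 FPKM. For sensing genes the count of 2 was 5, 1 and 1 at these thresholds and 1 to 2 with a library left out. For the channels the count of 2 was 1 at 10 FPKM. No paired analysis between groups was possible because there is 1 group. Groups of 3 libraries are too small for the outlier test used with 4 or more.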
